A study of Arabidopsis thaliana with 10 samples.

Results

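Of the 16722 probe sets that the array's annotation pairs with exactly 1 Arabidopsis thaliana gene, 48 carried genes that were higher in wild-type roots without iron and also higher in bts-3 roots that had been given iron. A probe set is the group of probes on the array that reads 1 transcript. A gene was taken when both wild-type arrays without iron lay above both wild-type arrays with iron, and when the group means differed by at least 1 on the log2 scale in 2 comparisons, WT -Fe over WT +Fe and bts-3 +Fe over WT +Fe. Of 61 genes meeting these conditions, 9 loci of a list of 16 iron-deficiency genes and 4 members of large enzyme families were set aside, and no chloroplast gene was among them. The same conditions were met by 62 of 11102 probe sets without a gene name and by 1 of 759 with several genes, which are not described.

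Total RNA came from roots of plants that spent 2 weeks on B5 medium and then 3 days (72 h) on medium with or without iron. The 4 groups were bts-3 -Fe (the mutant bts-3 without iron, 3 arrays), bts-3 +Fe (bts-3 with iron, 3 arrays), WT -Fe (wild type, Col, without iron, 2 arrays) and WT +Fe (wild type with iron, 2 arrays), and the labels call the arrays of a group biological replicates, with no word on how plants were pooled. The labels do not state the lesion of bts-3. BRUTUS (BTS) itself has no probe set paired with it alone, so its transcript did not check the genotypes. Probe sets with several genes were not searched for BTS or for the other listed genes below. Values are log2 expression levels, and a difference of 1 is a doubling.

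Plants short of iron switch on a set of root genes for iron uptake, for secretion of iron-mobilising coumarins and for signalling, through a cascade of basic helix-loop-helix transcription factors. BTS is known as an iron-binding E3 ubiquitin ligase that marks some of these factors, ILR3 among them, for degradation. Genes induced by iron shortage can therefore be read in a bts mutant with iron, where the brake is altered while the nutrient is present.

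The first principal component placed bts-3 -Fe replicate 1 at 42, beside WT -Fe at 44.2 and 22.1, and placed bts-3 -Fe replicates 2 and 3 at -14.7 and -26.7. Replicate 1 of that group also had the lowest mean correlation with its group mates (0.969) and the lowest weight in limma's array weighting (0.356, against 0.861 to 1.517 for the other arrays). Results that rest on the bts-3 -Fe arrays are therefore also given array by array. Array medians over all probe sets lay between 5.27 and 5.45. Of the root hair markers, 2 of 4 had a probe set paired with exactly 1 gene. Their mean level was 8.06 to 8.68 on bts-3 -Fe, 7.47 to 8.74 on bts-3 +Fe, 8.98 to 9.03 on WT -Fe and 8.97 to 9.15 on WT +Fe. The other root markers looked for, 10 genes of transporters and of cortex, endodermis and stele, had no such probe set. The 3 measured shoot markers of 5, which include RCA and LHCB4.1, had mean levels of 6.5 to 7.66 on bts-3 -Fe, 7.47 to 7.69 on bts-3 +Fe, 6.66 to 7.04 on WT -Fe and 7.95 to 8.31 on WT +Fe. Shoot marker signal was thus measurable in these root samples and was lowest on bts-3 -Fe replicate 1 (6.5) and WT -Fe. Its part in the results was not tested. In whole roots, fewer cells of a type and less RNA per cell cannot be told apart.

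The values that chose the members are given as a description without a test. The WT -Fe mean exceeded the WT +Fe mean by 1.02 to 4.82 with a median of 2.03, against a median of 0.01 over all tested probe sets. The bts-3 +Fe mean exceeded the WT +Fe mean by 1.01 to 6.91 with a median of 1.58, against -0.01 over all. The WT +Fe arrays entered both differences. Just inside the limit on WT -Fe stood AT3G46080, AT3G52530 and AT4G15700 (1.018, 1.032 and 1.043), and just outside it AT5G39110, AT5G03390 and AT2G36470 (0.907, 0.898 and 0.876). For bts-3 +Fe the nearest members were AT5G10680, AT3G54880 and AT2G24692 (1.005, 1.006 and 1.022), and AT5G42830, AT3G14470 and AT2G19410 fell short (0.989, 0.989 and 0.984). AT3G46080, AT2G01023 and NDB4 had the narrowest gaps between the WT arrays (0.13, 0.193 and 0.194), whereas MSRB8 was left out because its WT arrays overlapped (-0.055).

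All 3 bts-3 +Fe arrays lay above both WT +Fe arrays for 45 of the 48 members, which the rule largely fixes, against 13.4% of all genes. They lay below both WT -Fe arrays for 21 members (43.8%), against 20.6% of all genes, and above both for 1 member, AT3G01345 (2.08%), against 15.1%. The rule used the arrays of each of these groups, and choosing members high on WT -Fe raises the count of 21. These counts are therefore a description and were not tested. On WT +Fe, 9 members lay below the lower quartile of all values on both arrays, NDB4, PUB54 and AT5G51440 among them, and no member did so on all 10 arrays.

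**Figure D1:**
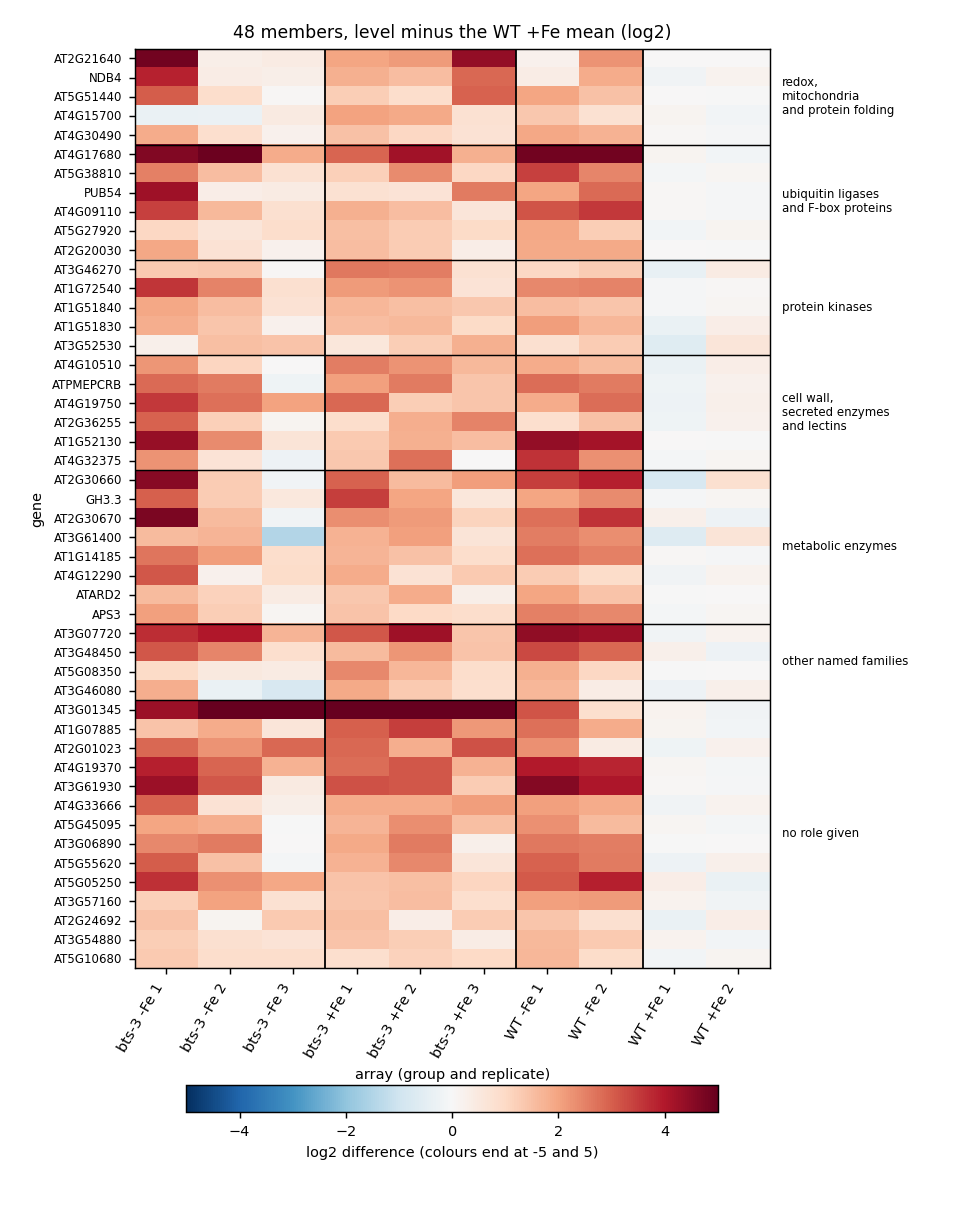
Level of each of the 48 members (rows, grouped by what the genes are known to encode) on each of the 10 arrays (columns), as the log2 difference from the gene's WT +Fe mean. Red is higher than WT +Fe, and the column of bts-3 -Fe replicate 3 is paler than that of bts-3 -Fe replicate 1 for most genes.

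The members encode proteins of many kinds, and 34 of them are sorted below by the family they are known to belong to. The families come from general knowledge of Arabidopsis, since the tables used here give names for 6 members only. For the other 14 members no role is given.

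Genes of ubiquitin ligases and F-box proteins, which pick other proteins for modification or degradation, made up 6 members. AT4G17680, of a small family of RING-type proteins, had the highest rise of all members in WT. It stood at 9.35, 9.61 and 6.56 on bts-3 -Fe, at 7.63, 8.93 and 6.49 on bts-3 +Fe, at 9.55 and 9.53 on WT -Fe, and at 4.85 and 4.6 on WT +Fe. Every bts-3 array was above both WT +Fe arrays, and replicate 3 was the lowest in both bts-3 groups. PUB54, a plant U-box ligase, had levels of 6.87, 2.97 and 3.04 on bts-3 -Fe and 3.41, 3.33 and 5.23 on bts-3 +Fe, against 4.6 and 5.45 on WT -Fe and 2.69 and 2.58 on WT +Fe. Its bts-3 mean on each medium rested largely on 1 array. AT4G09110, a RING protein of the ATL family, had means of 8.55 ± 1.34 on bts-3 -Fe and 9.94 ± 0.29 on WT -Fe (SD, n = 3 and 2). The other 3, the RING gene AT2G20030 and the F-box genes AT5G27920 and AT5G38810, had log2 differences of 1.06, 1.24 and 1.54 between bts-3 +Fe and WT +Fe.

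Among 5 members of redox, mitochondrial and folding functions, 3 shared a pattern that set them apart from most others on the heat map. AT2G21640, known for its induction by oxidative stress, was at 9.11, 4.59 and 4.69 on bts-3 -Fe and at 6.28, 6.41 and 8.67 on bts-3 +Fe, against 4.5 and 6.52 on WT -Fe and 4.29 and 4.3 on WT +Fe. NDB4, an alternative NAD(P)H dehydrogenase of the mitochondrion, was at 6.45, 2.95 and 2.89 on bts-3 -Fe and at 4.37, 4.15 and 5.45 on bts-3 +Fe, against 2.96 and 4.44 on WT -Fe and 2.42 and 2.77 on WT +Fe. The small heat shock protein gene AT5G51440 was at 5.96, 3.83 and 2.99 on bts-3 -Fe and at 4.19, 3.83 and 5.89 on bts-3 +Fe, against 4.94 and 4.4 on WT -Fe and 2.96 and 2.94 on WT +Fe. All 3 genes were highest on bts-3 -Fe replicate 1 among the arrays without iron and on bts-3 +Fe replicate 3 among those with iron.

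AT4G15700, a glutaredoxin gene, behaved differently from these 3. Its levels were 3.71, 3.73 and 4.48 on bts-3 -Fe and 6.06, 5.93 and 4.8 on bts-3 +Fe, against 5.37 and 4.8 on WT -Fe and 4.18 and 3.9 on WT +Fe. All bts-3 -Fe arrays lay below all bts-3 +Fe arrays and below both WT -Fe arrays. AT4G30490, which encodes an AFG1-like ATPase, had levels of 11.04, 10.03 and 9.39 on bts-3 -Fe, against 11.12 and 10.94 on WT -Fe.

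Wall, secreted and lectin genes made up 6 members. ATPMEPCRB, a pectin methylesterase, was at 8.29, 8.04 and 5.25 on bts-3 -Fe and at 7.52, 8.03 and 6.85 on bts-3 +Fe, against 8.25 and 8.06 on WT -Fe and 5.24 and 5.65 on WT +Fe. On bts-3 -Fe replicate 3 it was within the WT +Fe range. AT4G32375, of the pectin lyase-like family, had levels of 4.31, 2.76 and 1.83 on bts-3 -Fe, against 5.67 and 4.36 on WT -Fe, and so did not overlap between the genotypes without iron. The jacalin-type lectin gene AT1G52130 was at 6.53, 4.55 and 2.84 on bts-3 -Fe and at 3.5, 3.94 and 3.73 on bts-3 +Fe, against 6.58 and 6.33 on WT -Fe and 2.21 and 2.16 on WT +Fe. AT4G10510, a subtilase, AT4G19750, of a chitinase-like family, and AT2G36255, a defensin-like gene, had bts-3 +Fe means 2.14, 1.83 and 1.71 above WT +Fe.

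Metabolic enzymes formed the largest named group, with 8 members. APS3, an ATP sulfurylase of sulfate assimilation, was at 8.31, 7.49 and 6.35 on bts-3 -Fe and at 7.69, 7.25 and 7.13 on bts-3 +Fe, against 8.75 and 8.65 on WT -Fe and 6.16 and 6.34 on WT +Fe. ATARD2, an acireductone dioxygenase of methionine salvage, was at 7.21, 6.8 and 6.04 on bts-3 -Fe and at 7, 7.48 and 5.93 on bts-3 +Fe, against 7.61 and 7.05 on WT -Fe and 5.61 and 5.67 on WT +Fe. GH3.3, which conjugates auxin to amino acids, was at 8.65, 6.96 and 6.19 on bts-3 -Fe and at 9.15, 7.65 and 6.23 on bts-3 +Fe, against 7.66 and 8.03 on WT -Fe and 5.61 and 5.76 on WT +Fe. In each of these genes replicate 3 was the lowest bts-3 array on both media. AT3G61400, a dioxygenase of the family that uses iron and 2-oxoglutarate, was at 6.58, 6.7 and 3.52 on bts-3 -Fe, against 7.56 and 7.31 on WT -Fe and 4.36 and 5.62 on WT +Fe. The remaining 4 were the oxidoreductase genes AT1G14185, AT4G12290 and AT2G30670 and the crotonase-family gene AT2G30660, with bts-3 +Fe means 1.35, 1.29, 1.84 and 2.21 above WT +Fe.

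The 5 protein kinase genes had differences of -0.74 to 0.03 between bts-3 -Fe and WT -Fe (median -0.15), against a median of -0.75 over all 48 members, and none was called. They were AT3G46270, AT1G72540, AT1G51830, AT1G51840 and AT3G52530, with WT differences of 1.15, 2.43, 1.87, 1.45 and 1.03 between the media. Their median rise in WT was also smaller than that of all 48 members (1.45 against 2.03). The kinase genes were not tested against the other members. AT3G46270 was at 5.57, 5.61 and 4.31 on bts-3 -Fe and at 6.89, 6.79 and 5.02 on bts-3 +Fe, against 5.27 and 5.53 on WT -Fe and 3.86 and 4.65 on WT +Fe. Its bts-3 +Fe replicates 1 and 2 were above every WT array. Of the other named families, AT3G07720, a kelch-repeat protein gene, was at 10.14, 10.43 and 8.14 on bts-3 -Fe and at 9.52, 10.67 and 7.81 on bts-3 +Fe, against 10.87 and 10.7 on WT -Fe and 6.27 and 6.6 on WT +Fe. AT3G48450, of the family of the immune regulator RIN4, AT5G08350, of the GRAM-domain family, and AT3G46080, a zinc finger factor, had bts-3 +Fe means 1.75, 1.66 and 1.35 above WT +Fe.

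Among the 14 genes without a given role was the member with the largest difference between the genotypes. AT3G01345 was at 8.02, 11.23 and 10.86 on bts-3 -Fe and at 10.34, 10.82 and 10.81 on bts-3 +Fe, against 6.88 and 4.58 on WT -Fe and 3.91 and 3.59 on WT +Fe. Every bts-3 array of this gene, on either medium, was above every WT array. Over all genes, every bts-3 -Fe array was above both WT -Fe arrays for 8.15%, and every bts-3 +Fe array for 15.1%. The share of all genes that did so on both media and against every WT array was not counted. AT1G07885 was at 4.49, 4.89 and 3.65 on bts-3 -Fe and at 6.02, 6.52 and 5.2 on bts-3 +Fe, against 5.82 and 4.9 on WT -Fe and 3.18 and 2.92 on WT +Fe. AT5G05250 went the other way in bts-3, at 6.82, 5.42 and 5.09 on bts-3 -Fe and 4.58, 4.67 and 4.22 on bts-3 +Fe, against 6.22 and 7.02 on WT -Fe and 3.47 and 2.82 on WT +Fe. It was the 1 member whose bts-3 -Fe arrays all exceeded its bts-3 +Fe arrays, or 2.08% of the members, against 5.05% of all genes.

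**Figure D2:**
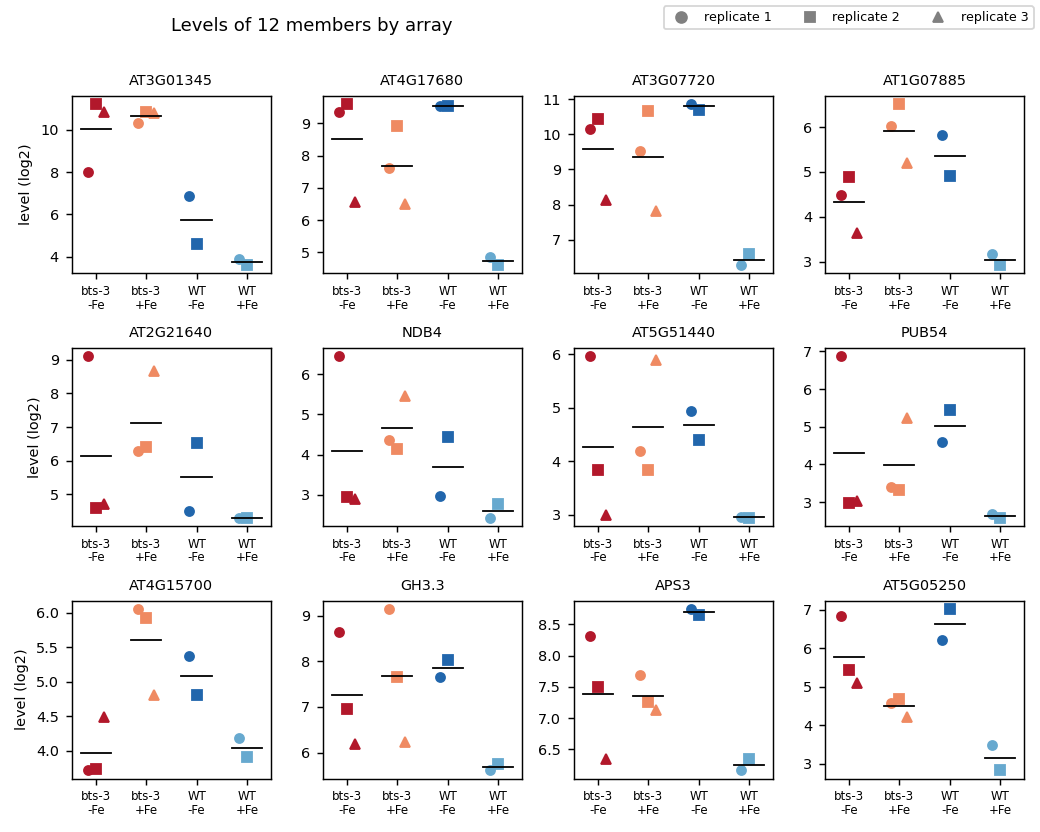
Log2 level of 12 members on each array by group, with circles, squares and triangles for replicates 1, 2 and 3 and a bar at the group mean (n = 3 for each bts-3 group and 2 for each WT group); each panel has its own axis. AT2G21640, NDB4, AT5G51440 and PUB54 have 1 high array in each bts-3 group, whereas AT3G01345 is high on every bts-3 array.

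The bts-3 -Fe arrays were not used to choose the members, and they differed widely from one another. To compare arrays, each level was placed on a scale on which the gene's WT +Fe mean is 0% and its WT -Fe mean is 100%. The median member stood at 102% on bts-3 -Fe replicate 1, at 64% on replicate 2 and at 25% on replicate 3. On bts-3 +Fe the medians were 80%, 87% and 51%. Roots of bts-3 replicate 3 thus had the lowest median on both media.

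On bts-3 -Fe replicate 1, 22 of 48 members were above both WT -Fe arrays, and on replicates 2 and 3 the counts were 5 and 3. Over all genes the shares above both WT -Fe arrays were 31.6%, 33.7% and 35.4% on these arrays. The rule chose members high on WT -Fe, which lowers the members' counts. Above both WT +Fe arrays were 46, 45 and 36 members on bts-3 -Fe replicates 1, 2 and 3, against 40.3%, 35.4% and 39.4% of all genes, although the rule chose members low on WT +Fe. Replicate 1 was the highest of the 3 bts-3 -Fe arrays for 38 members and replicate 3 the lowest for 38, or 79.2% in each case. Over all genes these shares were 39.6% and 30.1%. On bts-3 +Fe, replicate 3 was the lowest for 33 members (68.8%), against 33.1% of all genes. The mean of the measured root hair markers was also lowest on replicate 3 of each bts-3 group, at 8.06 without iron and 7.47 with iron. Without iron this held for EXPA18 (7.94 on replicate 3), whereas EXPA7 was lowest on replicate 2 (7.95, against 8.18 on replicate 3). The mean of the 3 reference genes was lowest there too, at 9.64 without iron and 9.6 with iron, against 9.84 to 9.9 on the other bts-3 arrays. Among them GAPC2, a glycolytic enzyme gene, was at 10.96 and 10.93 on replicate 3 without and with iron, against 11.35 to 11.78 on the other bts-3 arrays. AT2G28390 and AT4G34270 did not follow without iron, at 9.04, 9.18 and 9.19 and at 8.8, 8.73 and 8.76 on replicates 1, 2 and 3. With iron AT2G28390 was lowest on replicate 3 (9.1) and AT4G34270 on replicate 2 (8.65). The part of either set in these differences was not tested.

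Not every member followed this order. Replicate 3 was the highest of the bts-3 +Fe arrays for 8 members, namely AT2G21640, NDB4, AT5G51440, PUB54, AT2G36255, AT4G33666, AT2G01023 and AT3G52530. On the bts-3 -Fe arrays, 7 of these 8 were highest on replicate 1, and the exception was AT3G52530. Without iron, replicate 1 was also the highest for 31 of the other 40 members, and for 39.6% of all genes. The 8 thus differed from the other members in their order with iron rather than without it. AT2G21640 exceeded the next replicate by 2.27 on bts-3 +Fe replicate 3 and by 4.42 on bts-3 -Fe replicate 1, and PUB54 by 1.81 and 3.83. AT2G01023 exceeded it by 0.28 and by less than 0.01. The median position of the 8 was 194% on bts-3 +Fe replicate 3 and 195% on bts-3 -Fe replicate 1, against 39% and 102% for the other 40 members. These 8 were picked after their values were seen, so no test was made of them.

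**Figure D3:**
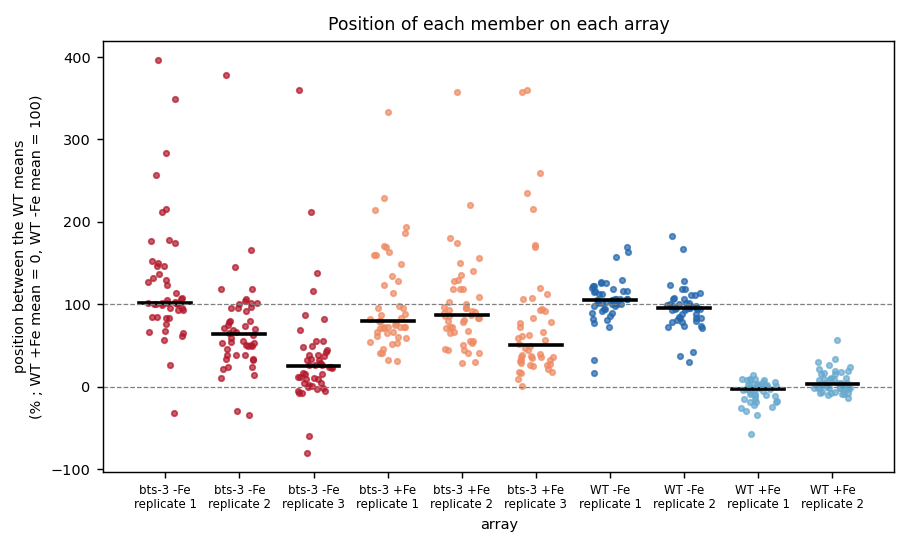
Position of every member (points) on each of the 10 arrays, in percent of the way from the gene's WT +Fe mean (0) to its WT -Fe mean (100), with a bar at the median of the 48. The medians on bts-3 -Fe replicates 1, 2 and 3 are 102%, 64% and 25%.

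Whether iron shortage still changed the members in bts-3 was asked by comparing bts-3 -Fe with bts-3 +Fe. The bts-3 +Fe arrays had helped to choose the members, which lowers this difference. The 48 values ran from -1.63 to 1.29 with a median of -0.11, and 20 were above 0. Over all tested probe sets the median was 0.02. In limma's moderated test with Benjamini-Hochberg adjustment over 17481 probe sets, 0 of 48 members passed an adjusted p of 0.05, against 0.0229% of all tested. At an unadjusted p under 0.05 there were 5 of 48 members, 1 of them higher, against 867 of 17481 tested probe sets (4.96%). This count rested on single arrays and on the pairing. Leaving out replicate 1 of bts-3 -Fe gave 13 members with 1 higher, and leaving out replicate 3 of that group gave 11 with 8 higher. It was 9 with a replicate block common to both genotypes, 11 to 13 with the blocks that pair the bts-3 arrays, and 8 with array weights.

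Those 5 members were AT4G15700, AT1G07885, AT5G05250, AT5G08350 and AT4G10510. AT4G15700 had the lowest value, -1.63 (SE 0.34, limma adjusted p = 0.306), and AT1G07885 followed with -1.57 (SE 0.39, limma adjusted p = 0.44). AT5G05250 had the highest, 1.29 (SE 0.41, limma adjusted p = 0.631). AT5G08350 and AT4G10510 had values of -1.04 (SE 0.35) and -1.05 (SE 0.46). AT4G15700 and AT1G07885 were the 2 members (4.17%) with every bts-3 -Fe array below every bts-3 +Fe array, against 3.28% of all genes. With a replicate block within genotype, AT1G07885 passed (limma adjusted p = 0.0352). Leaving out replicate 3 of bts-3 +Fe, AT4G15700 passed with -2.03 (limma adjusted p = 0.0493). Leaving out replicate 1 of bts-3 -Fe, AT4G33666 passed with -1.4 (limma adjusted p = 0.0376). All of these passes were negative, the direction that choosing members high on bts-3 +Fe favours. They therefore do not show a fall in bts-3 apart from that choice.

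For the genes with the strongest rise in WT, the interval of the bts-3 difference was wide. AT4G17680 had a value of 0.83 with a 95% interval from -0.84 to 2.49, and AT3G07720 of 0.23 with an interval from -1.3 to 1.77. A missed threshold therefore does not show that their levels were equal on both media in bts-3. The narrowest intervals belonged to genes with small differences, such as AT5G10680 with 0.02 (from -0.48 to 0.51) and AT5G27920 with -0.4 (from -0.9 to 0.11).

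Array pairs of the same number gave different pictures. In bts-3 replicate 1, 33 of 48 members were higher without iron, with a median difference of 0.62. In replicate 2 the count was 15 and the median -0.33, and in replicate 3 the count was 11 and the median -0.44. Over all genes the shares higher without iron were 51.2%, 54.8% and 52.6%. Leaving out replicate 1 of bts-3 -Fe moved the members' median of -0.11 to -0.56, and leaving out replicate 3 of that group moved it to 0.26.

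**Figure D4:**
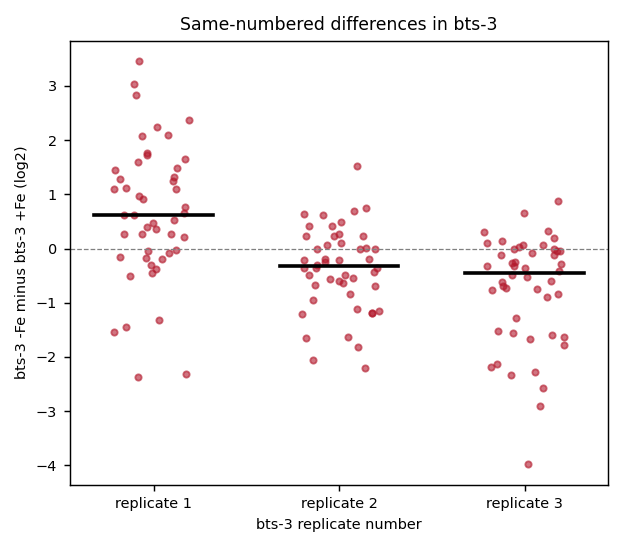
Difference between the bts-3 -Fe and bts-3 +Fe arrays of the same replicate number (log2), 1 point for each of the 48 members, with a bar at the median. The medians are 0.62, -0.33 and -0.44 for replicates 1, 2 and 3.

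The bts-3 and WT roots without iron were compared to ask whether the members reached the same level in both. The WT -Fe arrays had helped to choose the members, which again lowers this difference. The 48 values ran from -2.05 to 4.31 with a median of -0.75, and 40 were below 0. Over all tested probe sets the median was -0.01. With limma, 0 of 48 members passed an adjusted p of 0.05 (smallest adjusted p = 0.549), against 0.0% of all tested. An unadjusted p under 0.05 was found for 12 of 48 members, against 1163 of 17481 tested probe sets (6.65%). This count also rested on single arrays. Leaving out replicate 1 of WT -Fe gave 2 members, both higher in bts-3, so that no lower member was left. Leaving out bts-3 -Fe replicates 1, 2 and 3 in turn gave 26, 7 and 4 members. The count was 23 with array weights and 28 with a replicate block within genotype, a fit whose error leaves out the spread between replicate numbers.

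Of those 12, 10 were lower in bts-3. They included APS3 with -1.31 (SE 0.44, limma adjusted p = 0.705), AT4G32375 with -2.05 (SE 0.8), AT3G61400 with -1.84 (SE 0.83), AT1G52130 with -1.81 (SE 0.76), AT4G15700 with -1.11 (SE 0.38) and AT1G07885 with -1.02 (SE 0.44). The F-box genes AT5G38810 and AT5G27920 had values of -1.33 (SE 0.52) and -0.73 (SE 0.26), and AT4G09110 had -1.39 (SE 0.61). The tenth was AT3G57160 with -0.76 (SE 0.34). AT3G01345 and AT2G01023 were higher in bts-3, by 4.31 (SE 0.86, limma adjusted p = 0.549) and 1.3 (SE 0.52, limma adjusted p = 0.737). Without bts-3 -Fe replicate 1, AT3G01345 passed, with a difference of 5.32 (limma adjusted p = 0.0289).

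All bts-3 -Fe arrays were below both WT -Fe arrays for 10 members (20.8%), against 11.3% of all genes. These were AT3G07720, AT1G07885, AT5G08350, AT4G15700, AT3G61400, AT4G32375, AT3G57160, AT5G27920, APS3 and AT3G54880. All were above both for AT3G01345 alone (2.08%), against 8.15% of all genes. Choosing members high on WT -Fe raises the count of 10 and lowers the count of 1. Both counts are therefore a description and were not tested. All bts-3 -Fe arrays were above both WT +Fe arrays for 33 members (68.8%), against 10.6% of all genes, although the choice of members by low WT +Fe values raises this count. Leaving out replicate 3 of bts-3 -Fe moved the median of -0.75 to -0.28, and leaving out replicate 1 of that group moved it to -1.23. A replicate block common to both genotypes gave -0.41.

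**Figure D5:**
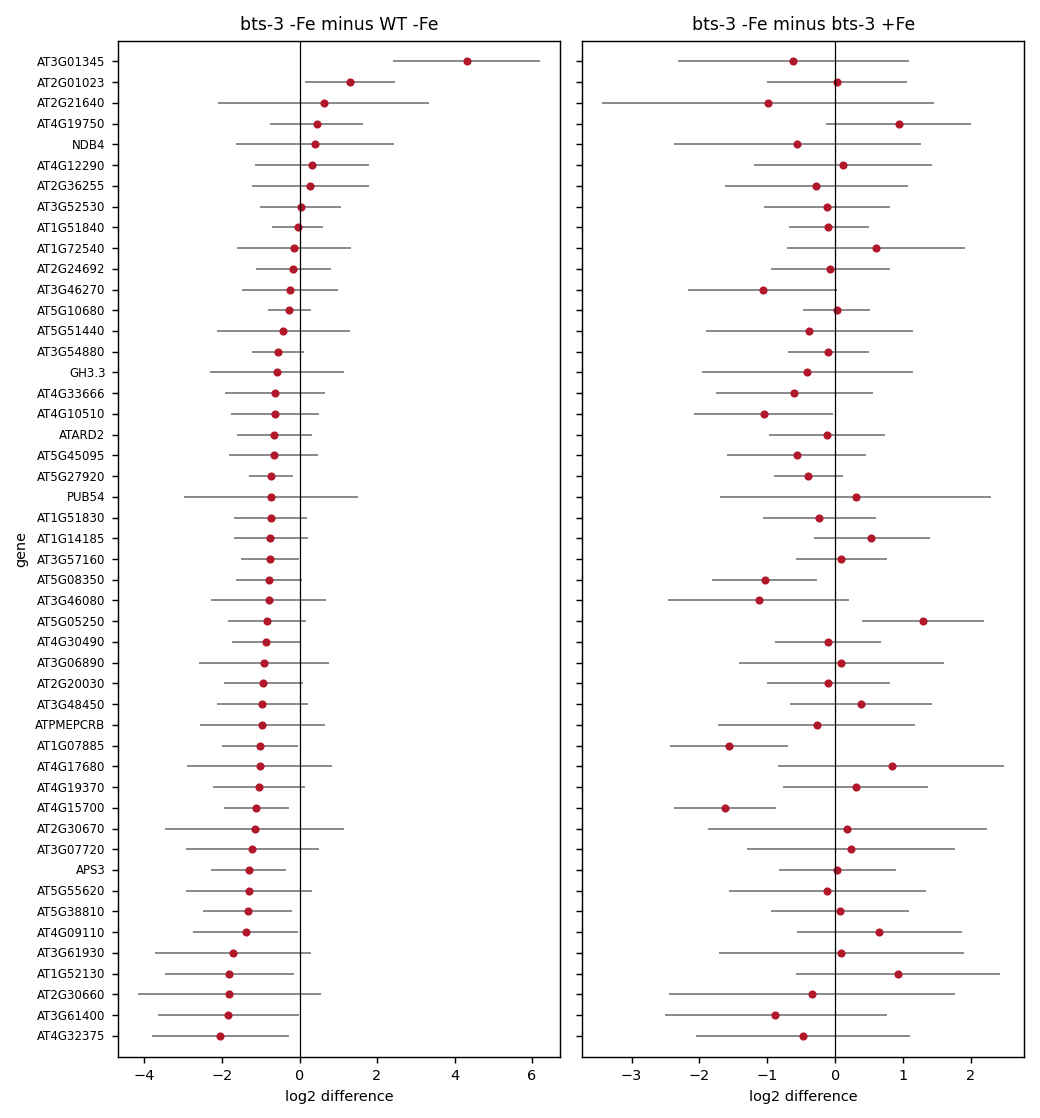
Log2 difference of bts-3 -Fe from WT -Fe (left) and from bts-3 +Fe (right) for each of the 48 members, with the 95% interval of limma's moderated fit for each gene taken alone (horizontal lines). AT3G01345 stands apart on the left at 4.31, and 40 of the 48 points there are below 0.

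The response to iron shortage, -Fe minus +Fe, was smaller in bts-3 than in WT for all 48 members, by 0.97 to 4.23 with a median difference of -2.32. Because the rule required a rise in WT and a high level on bts-3 +Fe, this is a description and was not tested.

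The listed iron-deficiency genes that were kept out of the members were measured beside them. All 16 genes on that list, with 17 probe sets, had higher means on WT -Fe than on WT +Fe (median 2.98), and earlier results on these arrays had led to their choice. Between bts-3 -Fe and bts-3 +Fe their median was 0.25, with 15 of 17 probe sets above 0 and none called. Between bts-3 -Fe and WT -Fe it was -0.83, with none above 0 and none called. On the scale used above, their medians were 94%, 74% and 34% on bts-3 -Fe replicates 1, 2 and 3, and 53%, 59% and 22% on bts-3 +Fe. Replicate 3 was thus the lowest on both media for their medians as it was for the members'.

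Of 12 iron signalling genes looked for, 5 had a probe set, all of them upstream basic helix-loop-helix factors (bHLH115, bHLH121, bHLH34, bHLH104 and ILR3). None was called in either comparison, and their values lay between -0.07 and 0.24 for bts-3 -Fe against bts-3 +Fe and between -0.25 and 0.49 for bts-3 -Fe against WT -Fe. Of 10 genes of iron storage and iron-sulfur assembly only ISU1, a scaffold of iron-sulfur cluster assembly, was measured, at -0.28 and -0.43 in these comparisons, and it was not called. The 19 genes of iron uptake and transport looked for, the transporter IRT1 and the reductase FRO2 among them, had no such probe set and were not analysed here.

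Genes induced in WT that did not pass the condition on bts-3 +Fe were set beside the members, leaving out the same families and loci. There were 194, with a median rise in WT of 1.27. Between bts-3 -Fe and bts-3 +Fe the members had a median of -0.11 with 28 (58.3%) below 0, whereas the 194 had a median of 0.34 with 29 (14.9%) below 0. The rule separates these sets by their level on bts-3 +Fe, so this contrast was not tested. Between bts-3 -Fe and WT -Fe the medians were -0.75 for the members and -0.72 for the 194. Of the members 83.3% were below 0, against 96.9% of the 194, and 20.8% had all bts-3 -Fe arrays below both WT -Fe arrays, against 37.1% of the 194. These shares were not tested against each other.

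Some members lie next to each other in the genome. By the order of protein-coding genes in the RefSeq table of assembly TAIR10.1, AT1G51830 and AT1G51840 are immediate neighbours, and so are AT2G30660 and AT2G30670. AT1G52130 lies beside AT1G52120 and AT5G38810 beside AT5G38820, both of which are iron-responsive genes on the list that was set aside. Their rises in WT were 1.87 and 1.45, 3.68 and 3.18, 4.27 and 5.97, and 2.94 and 5.17, in the order given. In the genotype difference with iron, AT1G52130 had a value of 1.54 beside 4.86 for AT1G52120, and AT5G38810 of 1.54 beside 3.48 for AT5G38820. AT1G51830 and AT1G51840 belong to 1 family, and so do AT1G52120 and AT1G52130, and probes shared between such copies cannot be told apart from these files. The 48 members were spread over all 5 chromosomes, with 7, 9, 11, 13 and 8 on chromosomes 1, 2, 3, 4 and 5.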

How the data were processed

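Root RNA (100 ng per array, per the labels' protocols) was measured on 10 Affymetrix arrays. The authors deposited a log2 level for each probe set on each array. The submitters' processing notes name RMA and Affymetrix Expression Console. No version or genome build is given in the sources used here, and RMA compresses differences of dim transcripts. The values ran from 0.713 to 14.1. The number of arrays limits the precision.

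Of 28583 probe sets, 17481 have at least 1 gene in the platform annotation, 16722 of them exactly 1. All 48 members were matched by gene ID to RefSeq names. Group means were fitted with limma 3.58.1 in R 4.3.3 over 17481 probe sets and 10 arrays (6 residual and 4.57 prior degrees of freedom), two-sided, with Benjamini-Hochberg adjustment within each comparison and calls at 0.05. The fit was tested on simulated data. Members and lists were chosen with earlier results of these data known. Named were members with a symbol, the 12 highest in each difference of the rule, those called, the extremes of the tested differences and the nearest to each limit; any others were chosen after their values were seen. Promoter sequences were not used here.

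Same-numbered bts-3 arrays on the 2 media deviated together (r = 0.302, 0.511 and 0.389 across probe sets), so the numbers pair them by their values and not by the labels. The bts-3 arrays of different numbers gave r from -0.292 to -0.113. Deviations from a group mean sum to 0, so these values fall when the same-numbered ones rise. WT numbers gave r = -0.107. With 2 arrays in each WT group, crossing the numbers only turns the sign (r = 0.107), so the WT value says little about pairing.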

Additional observations from a re-analysis of the deposited data

Results flagged for a closer look

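AT1G07885 and AT4G15700 had every WT -Fe array above every WT +Fe array, and every bts-3 -Fe array below every bts-3 +Fe array. The rule required the first of every member. The second held for 4.17% of the members, near the 3.28% of all genes. Their bts-3 -Fe minus bts-3 +Fe differences were -1.57 and -1.63, against WT differences of 2.32 and 1.04 between the media. The difference between the genotypes was not tested, because the WT contrast and the bts-3 +Fe arrays chose these genes.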

How the results depend on the processing

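The count of called members between bts-3 -Fe and bts-3 +Fe (0) was 1, AT1G07885, with a replicate block within genotype, with a replicate block within genotype and the WT numbers crossed, and with a replicate block in bts-3 alone (limma adjusted p = 0.0352, 0.0498 and 0.0386), the last 2 chosen after the data were seen. Its difference was negative, the direction that the choice of members favours. The count stayed at 0 under the other 6 alternatives. With 1 array left out it lay between 0 and 1, as did the count between bts-3 -Fe and WT -Fe, which was 0 under all 9 other alternatives. A lone WT array was assumed to vary like the other groups. The 4 medians moved by no more than the SD of the array medians (0.15 to 0.96). With 1 array left out they ran from -0.56 to 0.26, from -1.23 to -0.28, from 2.0 to 2.15 (WT -Fe against WT +Fe) and from 1.48 to 1.87 (bts-3 +Fe against WT +Fe). The rule gave 21 members at a limit of 1.5, 268 at a limit of 0.5, 45 (44 of them shared) when values were normalized again, and 46 to 89 without 1 array. It gave 89 without WT +Fe replicate 2, where 46 of the 48 were kept; fewer arrays make the condition on overlap easier to meet. The planned search of promoters was not run.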
